A study of Homo sapiens with 3 samples.

Results

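The imprinted miRNA cluster at 14q32, in the DLK1-DIO3 region of human chromosome 14, was followed through 3 small RNA libraries of HEK293 cells. Its members were the products of 48 listed hairpins, with the counts of each mature miRNA summed over its hairpins. The hairpins were listed by name and not by a measured value, although earlier results of these data were known at that time. All 48 hairpins were found in the deposited table, in 91 rows that gave 87 mature miRNAs of 2590 listed in all. Of these 87, 22 had a count in any library and 65 (74.7%) had none in any.

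Small RNA was sequenced from Flp-In T-REx 293 cells, a HEK293 (human embryonic kidney) derivative with a tetracycline-responsive repressor. The control cells carried an empty lentiviral vector, the miR-1 cells one with a miR-1 hairpin and the miR-122 cells one with a miR-122 hairpin, each hairpin placed inside an intron of a GFP reporter gene that doxycycline switches on. The cells of all 3 groups, the control included, underwent Geneticin selection (1 mg/mL, 6 days) followed by doxycycline (1 ug/mL, 7 days), and each library was made from 1000 ng of total RNA. Each group held 1 library, so no difference between groups could be set against a replicate spread, no p-value is given, and all intervals are 95% intervals that cover counting error only.

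MicroRNAs are cut from hairpins in longer transcripts, and the mature strand guides an Argonaute protein to mRNAs that pair with its seed, bases 2 to 8. At 14q32 the hairpins lie along the noncoding transcripts that follow MEG3, among them MEG8 and MEG9, which are expressed from the maternal chromosome, while DLK1, RTL1 and DIO3 are expressed from the paternal one. The miRNAs of the cluster are best known from brain, placenta and embryonic tissue. Of a first set of 9 listed hairpins, 5 run antisense to RTL1, a retrotransposon-derived imprinted gene that the placenta requires. A second, larger set begins at hsa-mir-379.

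The mature sequences of the 7 members with 3 or more counts over the 3 libraries are shown first, because they hold most of what was counted. The next 2 share a seed with one of them, and the last, hsa-miR-127-3p, is a product of the RTL1 antisense set that was at 0. They are RefSeq sequences (GRCh38.p14 table), 5′ to 3′, with the seed in capitals.
hsa-miR-381-3p: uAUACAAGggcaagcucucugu
hsa-miR-411-5p: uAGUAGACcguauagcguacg
hsa-miR-654-3p: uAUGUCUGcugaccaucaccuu
hsa-miR-889-3p: uUAAUAUCggacaaccauugu
hsa-miR-409-3p: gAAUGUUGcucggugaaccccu
hsa-miR-411-3p: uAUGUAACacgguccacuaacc
hsa-miR-369-3p: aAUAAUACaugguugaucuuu
hsa-miR-300: uAUACAAGggcagacucucucu
hsa-miR-379-3p: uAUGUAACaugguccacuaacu
hsa-miR-127-3p: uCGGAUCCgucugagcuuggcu

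The libraries held 1636481 to 1947669 counts of endogenous miRNAs, those not made from an introduced hairpin, and levels are given in CPM, counts per 1000000 endogenous miRNA counts of the library, so that 1 count was worth 0.513 to 0.611 CPM. A count of 0 was read as allowing up to 3 counts, a one-sided limit, which is 1.83 CPM in control, 1.67 CPM in miR-1 and 1.54 CPM in miR-122 cells. The two-sided Poisson intervals given for single members are wider, and at a count of 0 reach 2.25, 2.06 and 1.89 CPM. As a check of the labels, miR-1-3p had 1100840 counts in the miR-1 library against 166 in the control and 369 in the miR-122 library. Likewise, miR-122-5p had 627576 counts in the miR-122 library and 10 in each of the others. These libraries came from cells whose vector lacked the hairpin of the miRNA in question, and their counts of it were as high as or higher than the count of any 14q32 member. Whether reads passed between libraries was not tested.

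Detection of the 14q32 cluster was sparse in all 3 libraries. With detection set at 1 count or more, 8 of 87 members were detected in the control library (9.20%, 95% Wilson interval 4.73 to 17.1). In the miR-1 library 11 were detected (12.6%, 7.21 to 21.2) and in the miR-122 library 15 (17.2%, 10.7 to 26.5). Of the 2493 other endogenous mature miRNAs, 41.8% were detected in the control, 43% in the miR-1 and 41.9% in the miR-122 library. The share of members detected was thus below that of the other miRNAs in every library, and the intervals of the 3 libraries overlapped each other.

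Counts of the members thinned out quickly above 1. Only hsa-miR-381-3p, hsa-miR-411-5p and hsa-miR-411-3p were detected in all 3 libraries (3.45% of members, against 33.4% of the other endogenous miRNAs). A further 6 members (6.90%) were detected in exactly 2 libraries and 13 (14.9%) in exactly 1. Shares for exactly 2 and exactly 1 were not computed for the other miRNAs, so they are not read as a trait of the cluster. In any library 25.3% of members were detected, against 52.5% of the other miRNAs, and the 74.7% detected in none compared with 47.5%. Of the 22 members with a count, 12 had a single count over the 3 libraries together. No member had a mean count of 10 or more, against 20.6% of the other miRNAs, and 1 member, hsa-miR-381-3p, reached 10 counts in any library. At 10 counts or more, 499 of the 2493 other miRNAs remained in the control, 519 in the miR-1 and 515 in the miR-122 library, as the plot of count distributions shows.

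**Figure D1:**
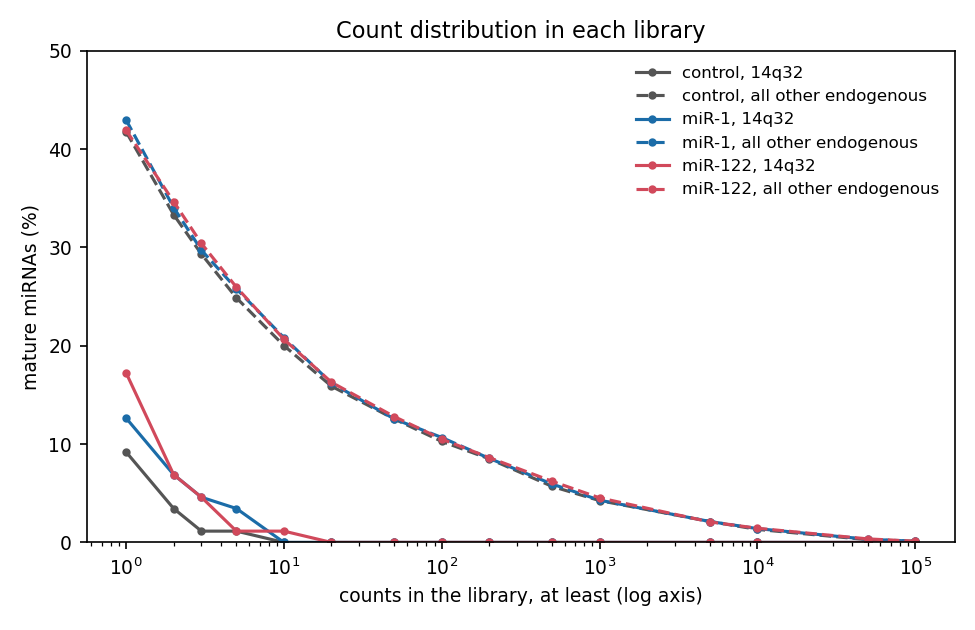
Percent of mature miRNAs (vertical axis) with at least the number of counts on the horizontal log axis, for the 87 members of the 14q32 cluster (solid lines) and the 2493 other endogenous miRNAs (dashed lines), each library in its own colour. The solid lines start at 9.20% to 17.2% and reach 0 above 10 counts, whereas the dashed lines start at 41.8% to 43%.

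The member with the most counts was hsa-miR-381-3p, from hsa-mir-381, a hairpin in an intron of MEG9 (GRCh37 chr14:101512257-101512331, + strand). It had 5 counts in control, 6 in miR-1 and 10 in miR-122 cells. These were levels of 3.06, 3.35 and 5.13 CPM, and it ranked 590th, 587th and 505th among the endogenous miRNAs. After TMM scaling on endogenous miRNAs, its miR-122 to control ratio was 1.79 (95% interval 0.558 to 6.68) and its miR-1 to control ratio 1.12 (0.286 to 4.66). Both intervals held 1, so no difference in this miRNA was detectable at this depth, and they also held differences of several fold.

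The hairpin hsa-mir-411, in an intron of MEG8 (chr14:101489662-101489757, + strand), was the other one counted in every library. Its 5p product had 1 count in the control, 5 in the miR-1 and 3 in the miR-122 library, and its 3p product had 1, 2 and 2. The ratio of hsa-miR-411-5p in the miR-1 library to the control was 4.69 (0.525 to 222), and that in the miR-122 library to the control 2.69 (0.216 to 141). A single control count lies under both ratios, and both intervals reach from below 1 to above 100.

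The next pair of members was counted in both miRNA-expressing lines and at 0 in the control. For hsa-miR-654-3p (hsa-mir-654, chr14:101506556-101506636, + strand) there were 0 counts in the control, 5 in the miR-1 and 4 in the miR-122 library. For hsa-miR-889-3p (hsa-mir-889, chr14:101514238-101514316, + strand) the counts were 0, 2 and 4. For both miRNAs the Poisson intervals of the 3 libraries overlapped, but overlap of separate intervals does not test a difference. With a control count of 0 no ratio to the control is given, so a difference from the control was not tested.

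The 5 members that came next had 2 or more counts in all, and their order of the libraries varied. The counts of hsa-miR-409-3p were 2 in the control, 3 in the miR-1 and 0 in the miR-122 library, and those of hsa-miR-369-3p were 2, 0 and 1. The 2 counts of hsa-miR-370-3p were both in the miR-122 library. For hsa-miR-379-5p the counts were 0, 1 and 1, and for hsa-miR-495-3p 1, 1 and 0. In these 5 members no library had more than 3 counts, and the library with the most differed from member to member.

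The 12 remaining members had a single count each. It was in the control library for hsa-miR-127-5p and hsa-miR-382-3p, and in the miR-1 library for hsa-miR-1197, hsa-miR-323a-3p and hsa-miR-485-3p. The other 7 of these single counts were in the miR-122 library, the largest of the 3 by endogenous counts: hsa-miR-299-3p, hsa-miR-382-5p, hsa-miR-485-5p, hsa-miR-487a-5p, hsa-miR-539-5p, hsa-miR-543 and hsa-miR-758-3p. When the larger libraries were thinned to the endogenous total of the control, the expected number of detected members was 8 in the control, 10.6 in the miR-1 and 13.5 in the miR-122 library. These expected numbers have no interval, and none are given for the other endogenous miRNAs. The part of library size in the number detected was not tested.

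**Figure D2:**
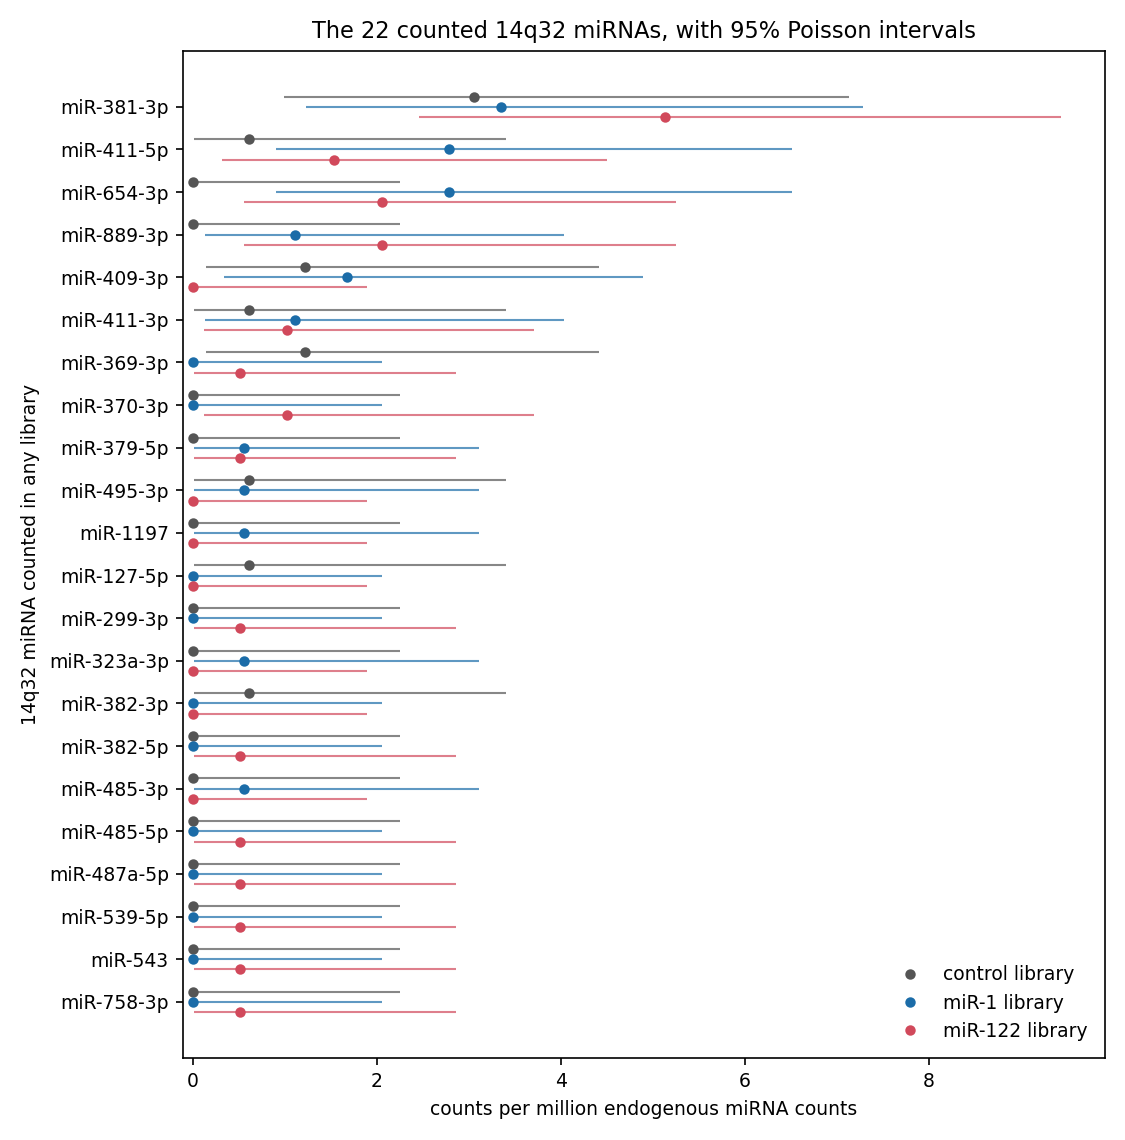
Level of each of the 22 counted members (rows) in CPM of endogenous miRNA counts (horizontal axis), one point per library with its exact 95% Poisson interval; points at 0 are libraries with no count. hsa-miR-381-3p lies highest, at 3.06 to 5.13 CPM, and within every row the intervals of the 3 libraries overlap.

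The lines shared only part of the members they detected. The miR-1 and control libraries had 5 detected members in common, which were 45.5% of the 11 in miR-1 and 62.5% of the 8 in the control. The miR-122 and control libraries shared 4, or 26.7% of 15 and 50% of 8. The miR-1 and miR-122 libraries shared 6, or 54.5% of 11 and 40% of 15. At 1 or 2 counts a member, a miRNA of the same level can be counted in one library and missed in another, so these overlaps do not show that the lines differ in which members they express. Overlaps between pairs of libraries were not computed for the other endogenous miRNAs, so partial sharing is not read as a trait of the cluster.

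Summed over all 87 members, the cluster had 14 counts in the control, 28 in the miR-1 and 34 in the miR-122 library. That was 8.55 (exact Poisson interval 4.68 to 14.4), 15.6 (10.4 to 22.6) and 17.5 (12.1 to 24.4) CPM. In control cells 439 single miRNAs outside the cluster each had more counts than the whole cluster, and there were 362 such miRNAs in miR-1 and 340 in miR-122 cells. The scaled sum was 1.87 times the control in the miR-1 library (0.955 to 3.85) and 2.18 times in the miR-122 library (1.14 to 4.39), and the miR-1 to miR-122 ratio was 0.862 (0.504 to 1.46). Only the miR-122 to control interval left out 1. Both ratios to the control use the same 14 control counts.

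A few members carried most of these sums. The 4 highest (hsa-miR-381-3p, hsa-miR-411-5p, hsa-miR-654-3p and hsa-miR-889-3p) had 6 of 14 counts in the control, 18 of 28 in the miR-1 and 21 of 34 in the miR-122 library, 59.2% of the 76 in all. Without hsa-miR-381-3p, the highest, the ratio to the control was 2.29 (1.01 to 5.65) in the miR-1 and 2.39 (1.07 to 5.84) in the miR-122 library. A pooled sum was taken over the 750 other endogenous miRNAs with 1 to 21 counts over the 3 libraries, the range of the counted members. Its ratio to the control was 1.06 (0.977 to 1.14) in the miR-1 and 1.01 (0.935 to 1.09) in the miR-122 library. A sum over so many miRNAs does not show how far a sum of few counts varies between libraries. The small sum of C19MC, another imprinted cluster described below, was 17.02 counts in the control, 8.01 in the miR-1 and 12.02 in the miR-122 library. Whether the ratios are particular to the 14q32 cluster was not tested. With 1 library per group, a difference between lines, cultures or library preparations cannot be told apart.

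The counts were unevenly placed along the locus. By the annotated hairpins, the cluster runs from hsa-mir-493 (chr14:101335397-101335485) to hsa-mir-656 (chr14:101533061-101533138), all on the + strand, with 198 kb between the first and last start. Between hsa-mir-370 and hsa-mir-379 lies a stretch of 110852 bp, within MEG8, that holds none of the listed hairpins. Of the 9 hairpins before that stretch 2 had a count, and of the 39 after it 17 did. The first group had 3 counts in all (1 in the control, 0 in the miR-1 and 2 in the miR-122 library), and the second had 73 (13, 28 and 32). By mature miRNAs, 2 of 17 (11.8%) and 20 of 70 (28.6%) were detected, a difference that was not tested. The 4 highest members, with 59.2% of all counts, are all in the second group.

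Among the hairpins opposite RTL1, hsa-mir-431, hsa-mir-433, hsa-mir-432 and hsa-mir-136 had no count from either arm, and hsa-mir-127 (chr14:101349316-101349412) had the single control count of its 5p product. The only other count of the first group was that of hsa-mir-370 (chr14:101377476-101377550). Thus hsa-miR-127-3p, printed above, was not detected at this depth in any library.

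By host transcript, 9 of the 13 hairpins within MEG8, hsa-mir-370 among them, had a count, 25 counts in all (3 in the control, 11 in the miR-1 and 11 in the miR-122 library). Within MEG9 it was 8 of 21 hairpins, with 41 counts (10, 12 and 19). Of the 6 hairpins between those genes, only hsa-mir-654 had a count, 9 in all (0, 5 and 4), while its neighbours of the hsa-mir-376 family and hsa-mir-300 had none. In total 29 of 48 hairpins were at 0 in every library, among them hsa-mir-134, whose miRNA is known from the control of dendritic spine size in neurons, and hsa-mir-494.

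**Figure D3:**
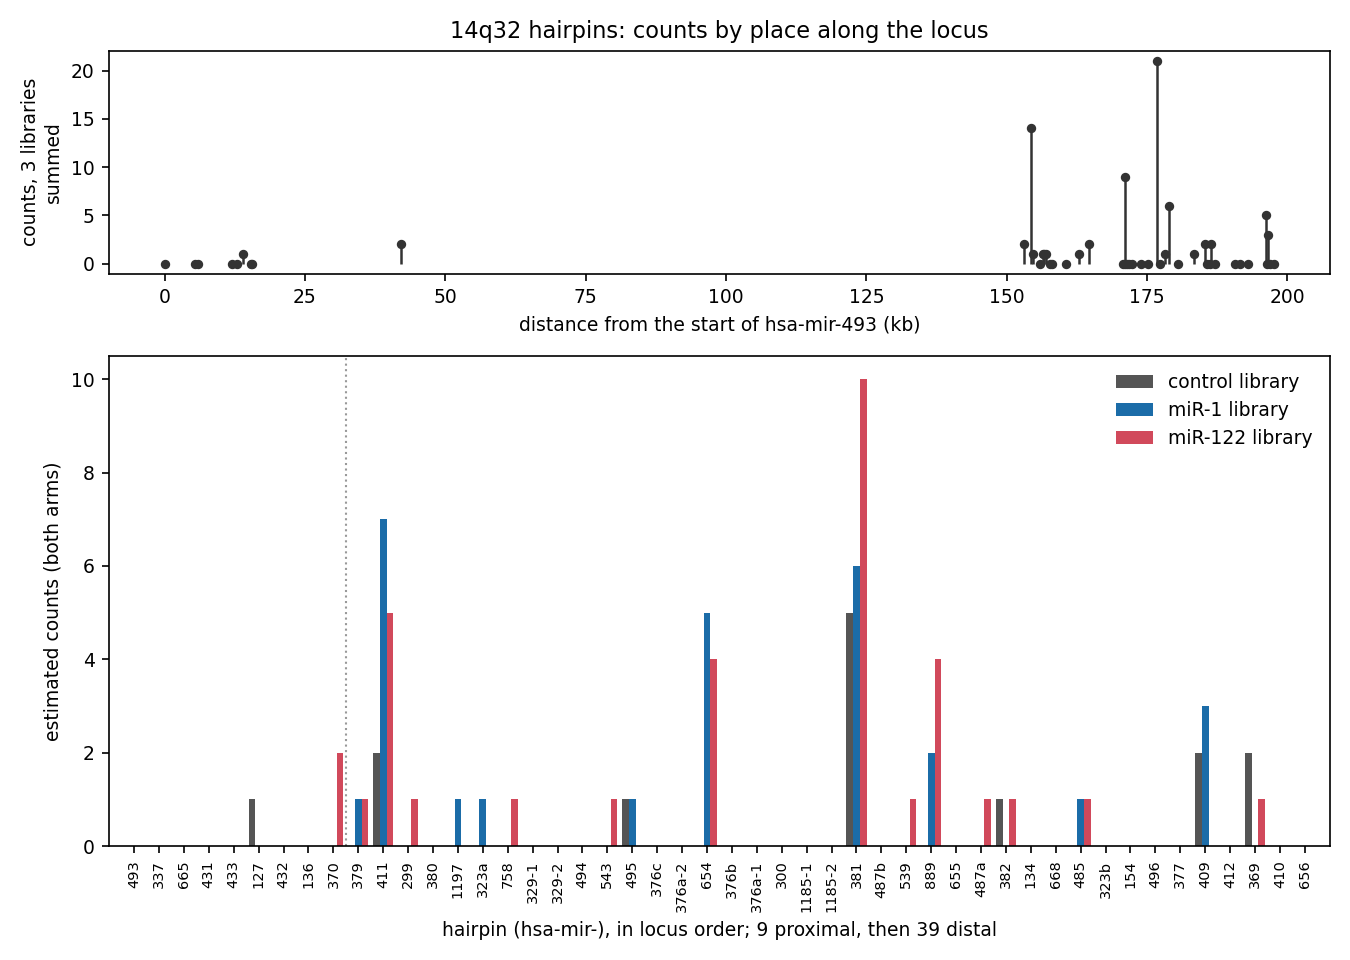
Top: counts of each of the 48 hairpins, summed over the 3 libraries (vertical axis), by distance in kb from the start of hsa-mir-493 (horizontal axis). Bottom: estimated counts per hairpin in control, miR-1 and miR-122 cells, hairpins in locus order, with a dotted line between the 9 proximal and 39 distal hairpins; hsa-mir-381, with 5, 6 and 10 counts, and hsa-mir-411, with 2, 7 and 5, are the highest.

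Counts came mostly from the 3p arms. Of the 41 members named as 3p products 13 were detected, with 58 of the 76 counts (76.3%), and of the 41 named as 5p products 7 were detected, with 16 counts. The rest were 2 single counts among the 5 members whose names give no arm. The 3p counts included 21 of hsa-miR-381-3p, 9 of hsa-miR-654-3p and 6 of hsa-miR-889-3p. Arm shares were not computed for the other endogenous miRNAs, so the 3p share is not read as a trait of the cluster. Only hsa-mir-381 and hsa-mir-411 had the 10 counts needed for a share of their own. All 21 counts of hsa-mir-381 were from its 3p arm (100%, 84.5 to 100), in each library. For hsa-mir-411 the 5p arm had 9 of 14 counts (64.3%, 38.8 to 83.7), an interval that held equal use of both arms.

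Within the cluster 76 seeds occurred, and 9 of them were shared by 19 members. hsa-miR-381-3p had the same seed as hsa-miR-300 (AUACAAG), yet all 21 counts of that seed were those of hsa-miR-381-3p and hsa-miR-300 was at 0. Likewise, the seed AUGUAAC is that of hsa-miR-411-3p, with 5 counts, and of hsa-miR-379-3p, with 0. The pairs hsa-miR-485-3p with hsa-miR-539-3p and hsa-miR-487a-5p with hsa-miR-487b-5p each had 1 count in all, and the 5 other shared seeds had none. In the pairs printed above, the mature sequences lie 3 edits apart for hsa-miR-381-3p and hsa-miR-300 and 2 edits apart for hsa-miR-411-3p and hsa-miR-379-3p.

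In the authors' counting a read that matched several hairpins was divided among them, and 0 of the 91 member rows held a fractional count. The 4 members listed for 2 hairpins had no count. RefSeq sequences were found for 86 of the 87 members, and none lay closer than 5 edits to a mature miRNA outside the cluster. The counted members were close to the others in GC content. Their median was 46.5% against 45.5%. A first base U was found in 9 of 22 counted members (40.9%) and in 18 of 64 others (28.1%), a difference that was not tested.

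Other miRNA clusters gave the levels a scale. Another 6 mature miRNAs of 14q32, from hsa-mir-770, hsa-mir-2392, hsa-mir-541, hsa-mir-544a and hsa-mir-1193, had 0 counts in all 3 libraries. The C19MC cluster at 19q13, an imprinted primate cluster known from placenta, had 8 of 62 members detected in the control (12.9%), 4 in the miR-1 (6.45%) and 6 in the miR-122 library (9.68%), with 77.4% detected in none. Some C19MC members had only fractional counts below 1, such as hsa-miR-526a with 0.4 in the control, and were scored as not detected. No 14q32 row held a fractional count, so the detection shares of these clusters are not like for like. The summed level of C19MC was 10.4 CPM (6.06 to 16.6) in control, 4.47 CPM (1.93 to 8.81) in miR-1 and 6.17 CPM (3.19 to 10.8) in miR-122 cells. Its library order was not that of the 14q32 cluster, but these Poisson intervals overlapped and nothing is read from the order. By contrast, the 12 mature miRNAs of miR-17-92, a cluster active in many dividing cells, summed to 95084, 91245 and 80977 CPM, and 11, 12 and 12 of them were detected. These sums take only the rows of the 6 hairpins of that cluster. Some of its counts were fractional, such as 56889.5 for hsa-miR-92a-3p in the miR-1 library, so they hold reads divided among hairpins.

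**Figure D4:**
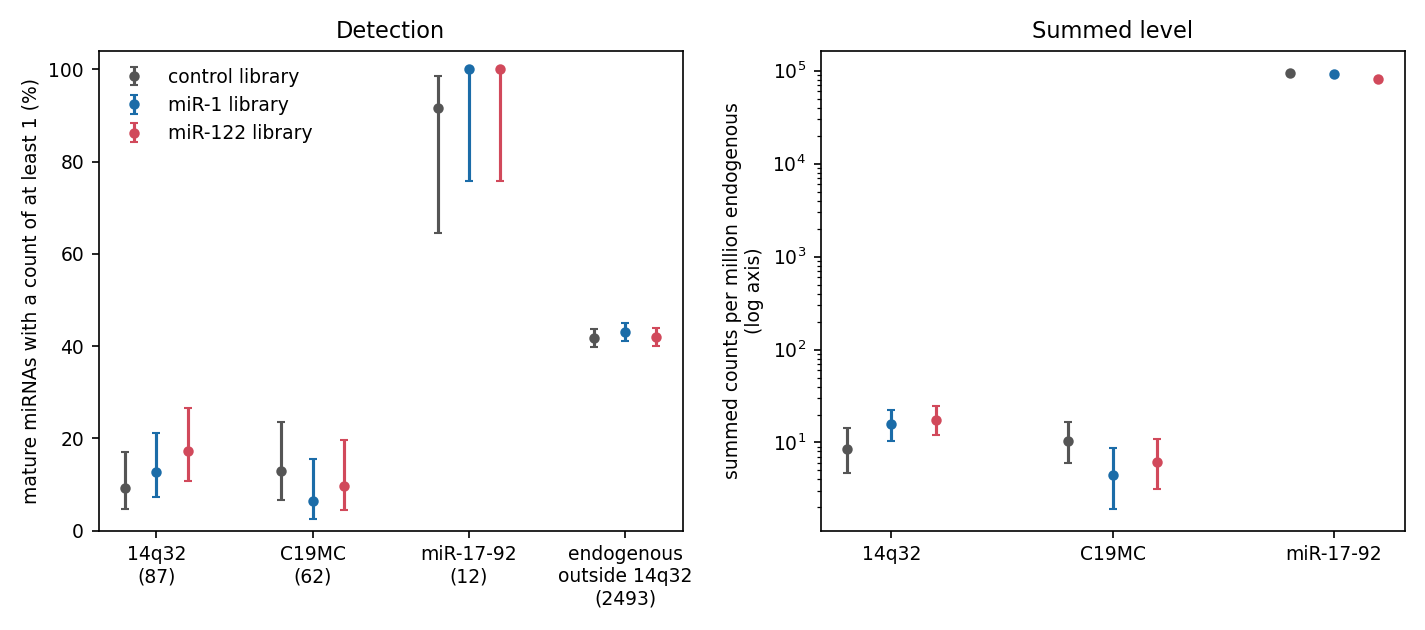
Left: percent of mature miRNAs with at least 1 count in each library, with 95% Wilson intervals, for 14q32 (87), C19MC (62), miR-17-92 (12) and the endogenous miRNAs outside 14q32 (2493). Right: summed level in CPM on a log axis, with 95% Poisson intervals; 14q32 lies at 8.55 to 17.5 CPM and miR-17-92 at 80977 to 95084.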

How the data were processed

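The deposited table gave, per mature miRNA and hairpin, estimated counts that the authors made with miRDeep2 on miRBase release 21 hairpins with their synthetic hairpins appended, from reads of at least 18 nt, dividing a read among the hairpins it matched. The authors also deposited RPM, which differed from counts scaled to 1000000 miRNA counts by at most 0.00652. Pooled total columns were not used; 0 columns of single samples were left out. The labels name hg19.

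Counts were summed by mature name, and synthetic hairpins were left out (2580 endogenous miRNAs). TMM factors (edgeR 4.0.16, R 4.3.3; alternative DESeq2 1.42.0) came from the 514 endogenous miRNAs with a mean count of 10 or more. Shares have Wilson intervals, levels exact Poisson intervals, and ratios of 2 libraries intervals from the Clopper-Pearson limits of their counts. Zero counts were taken to allow up to 3 counts. Reads carried no molecular identifiers. The computations were tested on simulated data.

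Hairpin coordinates are the match of the RefSeq hairpin to GRCh37 or, for 4 hairpins, GENCODE v44lift37 genes. hsa-miR-668-3p is named without a sequence. The members and lists were chosen with earlier results of these data known. The rule named the 12 members with the highest mean count; because of ties at 1 count, all 22 counted members are named. The C19MC list leaves out the mir-513 and mir-514 families, which lie on the X chromosome, although the wording of the list covered them. The planned median log2 ratio and 2-fold counts needed a mean count of 10, which 0 members had.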

Additional observations from a re-analysis of the deposited data

How the results depend on the processing

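For 11 results, 36 other settings and 3 more chosen after seeing the data were computed, and 35 of these moved a result by less than its interval or 1.5 times. The 4 that did not were these. Detection at 10 counts left 0 members in the control, 0 in the miR-1 and 1 in the miR-122 library. As a share of all miRNA counts, the induced miR-1 included, the cluster had 0.000968% in the miR-1 library in place of 0.00156% of endogenous counts. The miR-122 to control ratio of summed counts, whose interval left out 1, was 2.19 (1.14 to 4.41) with DESeq2 size factors and 2.04 (1.07 to 4.12) with endogenous totals. Scaled to totals with the induced miRNAs, which lowers every endogenous level in both miRNA lines, it was 1.54 (0.806 to 3.11), an interval that held 1. Without the 4 highest members, a choice made after seeing the data, it was 1.46 (0.559 to 4.05), and the miR-1 to control ratio was 1.17. Because 2 of those 4 had no control count and ranked high through the other libraries, leaving them out lowers these ratios by construction, and nothing is read from it. The median log2 ratio and the 2-fold counts of members had no value, since 0 members passed the filter; their alternatives were not run, because 18 of the 22 counted members were at or below 3 counts in every library, where no ratio was given. No paired analysis was possible because there was only 1 library in every group. At this depth a member at 0 may lie at up to 1.89 to 2.25 CPM by its two-sided Poisson interval.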
